A study of Homo sapiens with 6 samples.

Results

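The ErbB receptors and their EGF family ligands were examined in ovarian cancer cell clones with altered Hic-5. The set held the 4 receptor genes EGFR, ERBB2, ERBB3 and ERBB4 and 6 ligand genes, NRG1, AREG, EREG, HBEGF, TGFA and BTC. Every non-control probe whose gene name on the array was one of these 10 was included, which gave 10 of 26036 named genes and 21 of the 41000 probes, 9 for receptors and 12 for ligands. The data were 6 two-colour Agilent whole human genome arrays, on which each modified clone was hybridised against its control with the dyes Cy5 and Cy3 in both orientations.

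SKOV3 is a human ovarian cancer cell line known for amplification of ERBB2. Its sh-S1 and sh-S2 RNAs came from stable clones that carried lentiviral pLKO.1-puro shRNAs against Hic-5 and had been selected with puromycin. Ctrl was the same line with the scrambled vector. A2780s is another human ovarian cancer line, in which 1 neomycin-selected clone carried Hic-5 (Myc-DDK tagged) in pCMV6, called pCMV-Hic-5, and Ctrl carried the empty plasmid. SKOV3 therefore had 2 clones on 4 arrays, and A2780s had 1 clone on 2 arrays with no replicate. Each clone was a single line, so a difference between the clone and its Ctrl could not be told apart from one between individual clones.

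ErbB receptors are membrane tyrosine kinases that pair with one another when a ligand binds. EGFR binds AREG, TGFA, EREG, BTC and HBEGF, while ERBB3 and ERBB4 bind the neuregulins, and ERBB4 also binds BTC, EREG and HBEGF. ERBB2 has no known ligand of its own and ERBB3 has little kinase activity, so both work mainly as partners. The ligands are made as membrane proteins and most are released by ADAM proteases, after which the receptors drive the RAS-ERK and PI3K-AKT pathways.

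Some properties of the arrays bear on all SKOV3 values. TGFB1I1, the gene for Hic-5, had log2 ratios of -0.16, 0.12, -0.12 and 0.28 on the 4 SKOV3 arrays (mean 0.03, limma adjusted p = 0.855), so the loss of Hic-5 RNA that the labels state was not seen. They are therefore called the labelled knockdown RNAs, or by their labels sh-S1 and sh-S2. In pCMV-Hic-5 it was 4.05 and 2.60 above Ctrl. In these RNAs all 5 genes listed as high in SKOV3 (ERBB2, KRT7, KRT8, KRT18 and KRT19) were lower than in Ctrl, with summed signals of 8252 to 11090 and 7445 to 10950 against 49500 to 68290. The A2780 genes LIN28B and IGF2BP1 summed to 2893 to 4699 and 2552 to 4330 against 223 to 1161, and to 2870 to 3772 in A2780s Ctrl. Of 4 ovarian epithelial markers 3 were tested and PAX8 was called lower (-3.58), while MUC16 (0.06) and WFDC2 (0.41) did not pass. EPCAM (-0.10) was too dim to test on both dyes. In Cy3 alone, a comparison described below, all 4 were tested. There PAX8 (-3.88) and EPCAM (-1.23, limma adjusted p = 6.92e-05) were called lower, and MUC16 (-0.18) and WFDC2 (0.92) were not called. Of 5 fibroblast markers 4 were tested and COL3A1 was called higher (3.65), while the other 3 tested lay at -0.14 to 0.16. The summed endothelial markers overlapped (311 to 343 in Ctrl, 297 to 335 in the clones), none of the 3 bright enough to test. Whether the labelled knockdown RNAs came from the stated SKOV3 clones was not tested and is not settled here, and every SKOV3 value below is a difference between RNAs so labelled. The part of these marker differences in the results was not tested. In bulk RNA, fewer cells of a kind and less RNA per cell cannot be told apart. On the SKOV3 arrays Cy5 was dim: 43.7 to 63.6% of spots were well above background in Cy5 and 88.8 to 94.5% in Cy3, and the median signal after background subtraction was 9.52 to 25.5 in Cy5 and 373 to 531 in Cy3.

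In SKOV3, 10 of the 21 probes, from 7 genes, were bright enough to be tested. In the labelled knockdown RNAs 4 of them were called lower (1 ERBB2 probe and 3 NRG1 probes) and 1, for ERBB4, was called higher. A call needed 2-fold or more and a limma adjusted p no higher than 0.05. Over all 24955 probes tested, 4.16% were called lower and 2.97% higher. 8 of the 10 passed the adjusted p alone, where 31.7% of all probes tested did. 9 lay below 0, where 49.7% of all probes did, and the median log2 ratio of the 10 was -0.47 against 0.00 over all probes tested. EGFR, AREG, HBEGF A_23_P213944 and NRG1 A_23_P360777 entered only through Ctrl, which favours ratios below 0, and several of the 10 probes share a gene. The share below 0 and the median therefore do not show that the members as a set were lower. Values are log2 ratios of clone over Ctrl, given in the order sh-S1 in Cy5, sh-S1 in Cy3, sh-S2 in Cy5 and sh-S2 in Cy3, and SE is that of the mean over the 2 clones.

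**Figure D1:**
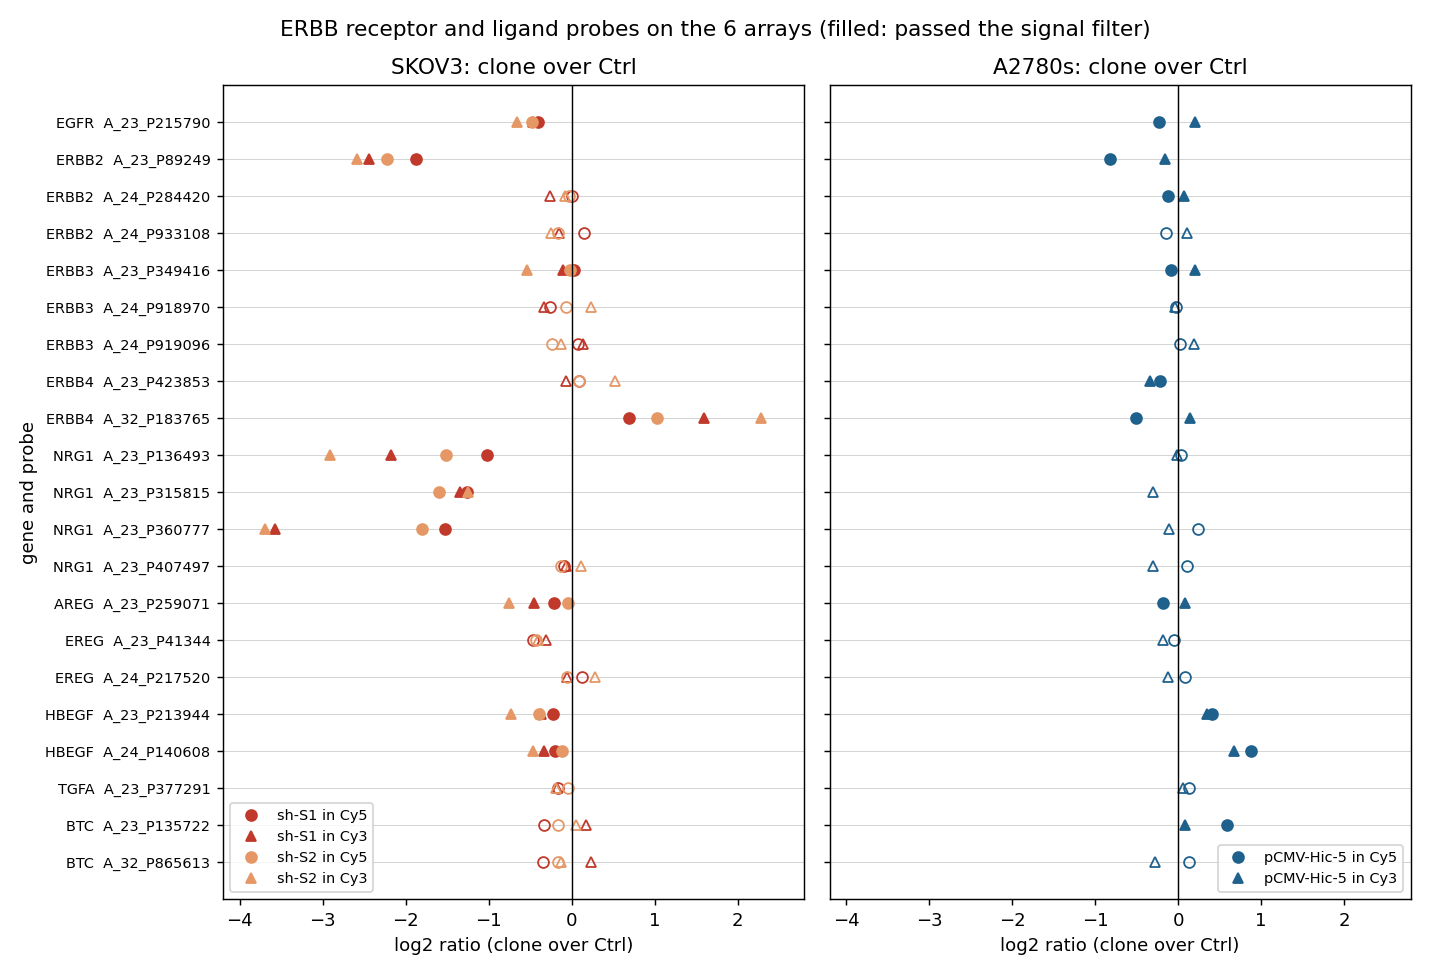
Log2 ratio of clone over Ctrl (horizontal axes) for the 21 probes (vertical axis) on the 4 SKOV3 arrays (left) and the 2 A2780s arrays (right). Colour gives the clone, shape the dye that carried it, and filled symbols mark probes that passed the signal filter of that line. 1 ERBB2 and 3 NRG1 probes sit below -1 on all 4 SKOV3 arrays, an ERBB4 probe sits above 0 on all 4, and both HBEGF probes sit above 0 on both A2780s arrays.

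The offset of 50 that was added to each signal pulls the log2 ratio of dim signals towards 0. A comparison of the Cy3 signals alone, the brighter dye on these arrays, was added between arrays after the data were seen. It keeps the offset of 50, so ratios of dim Cy3 signals are still pulled towards 0. It sets each clone, on the array that carried it in Cy3, against Ctrl on the 2 arrays that carried Ctrl in Cy3. By it 19 probes of all 10 genes were testable, 7 were called lower (EGFR, 1 ERBB2, 3 NRG1, 1 EREG and TGFA) and 1 higher (ERBB4), where 5.85% and 5.44% of 37820 probes were. Their median was -0.70 against 0.05 over all probes. TGFA, EREG A_23_P41344 and BTC A_32_P865613 entered only through Ctrl, which favours ratios below 0, so this median has the same limit. All values below that are named as Cy3 values come from this comparison, which uses ratios between spots of different arrays and leaves out the spread of Ctrl. They were taken after background correction, the offset and quantile normalization between the 4 SKOV3 arrays. The Cy3 signals quoted beside them are background-subtracted only and not scaled between arrays. A Cy3 value can therefore differ in size or sign from its quoted signals.

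**Figure D2:**
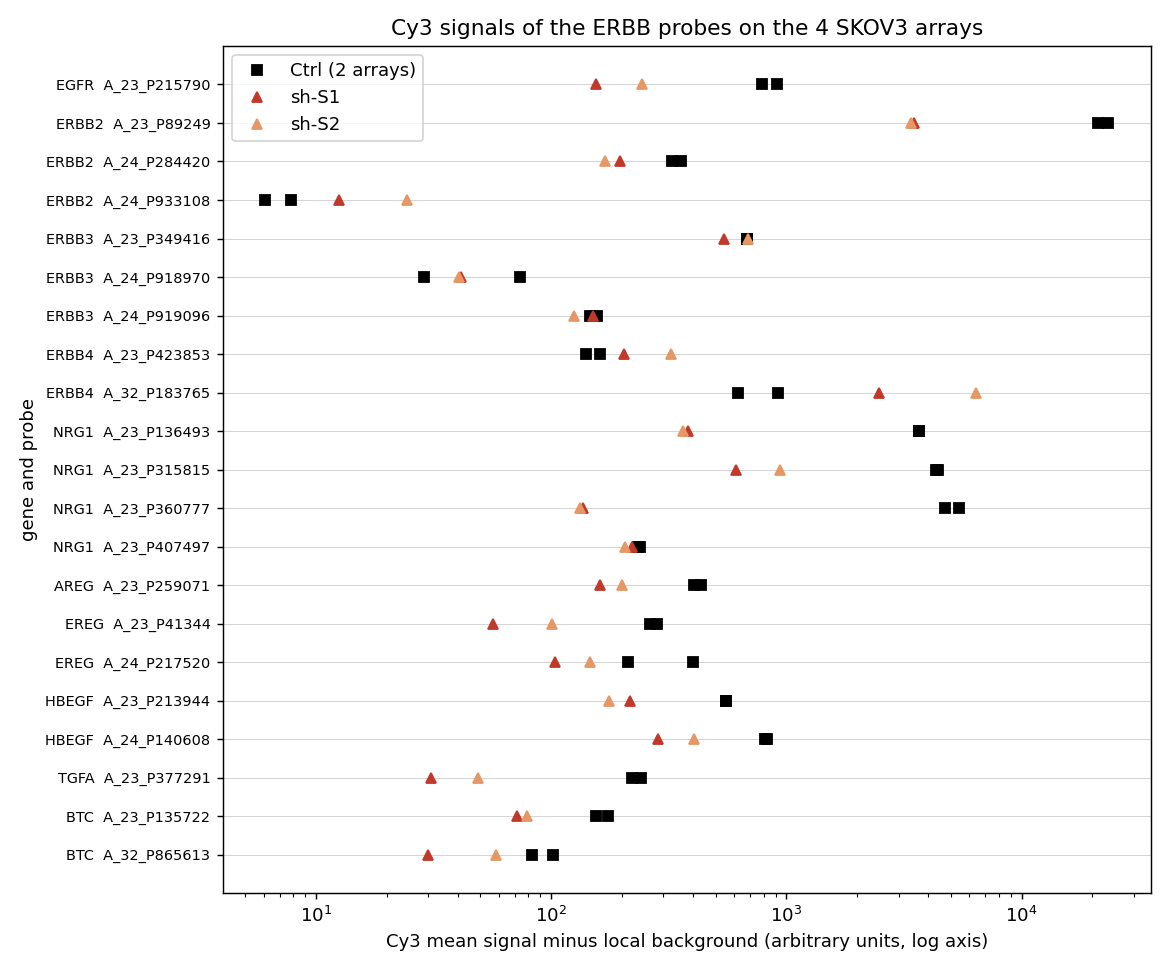
Cy3 mean signal minus local background (horizontal log axis, arbitrary units, not scaled between arrays) of the 21 probes on the 4 SKOV3 arrays. Black squares are Ctrl on 2 arrays and triangles the 2 clones, 1 array each. EGFR stood at 914 and 790 in Ctrl and at 155 and 243 in the clones, whereas the signals of the first ERBB3 probe in Ctrl and in sh-S2 lay close together.

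Among the receptors, ERBB2 fell most. Its 3′-end probe A_23_P89249 (hg19 chr17:37884829-37884888, plus strand, printed 10 times on the array) read -1.88, -2.44, -2.23 and -2.59, a mean of -2.28 ± 0.11 (SE, n = 2 clones) or 4.87-fold lower, with a limma adjusted p of 1.89e-05. All 4 arrays showed the decrease and the clones differed little, with an SD of 0.18. In Cy3 its background-subtracted signal was 23390 and 21120 in Ctrl, 3484 in sh-S1 and 3376 in sh-S2, and the Cy3 value was -2.43 ± 0.17 (SE; limma adjusted p = 7.63e-07).

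The other ERBB2 probes did not show this size of change. A_24_P284420 lies in the ERBB2 coding sequence (hg19 chr17:37866650-37866709, plus strand) and is shown because it and the 3′-end probe differ on the same arrays.
ERBB2 A_24_P284420: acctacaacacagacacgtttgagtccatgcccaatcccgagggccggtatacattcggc
The probe has 60 bases, of which 33 are G or C. Its Cy3 signal was 325 and 356 in Ctrl against 196 and 169 in the clones, and its ratios were 0.00, -0.26, -0.03 and -0.08. It was not bright enough to be tested on both dyes, and its Cy3 value of -0.42 ± 0.16 (SE) had a limma adjusted p of 0.0642. A_24_P933108, designed on another ERBB2 transcript, was not well above background in any RNA on any of the 6 arrays. Which ERBB2 transcripts each probe can bind was not examined here.

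EGFR, the receptor of most of the ligands, read -0.41, -0.47, -0.48 and -0.66, a mean of -0.50 ± 0.10 (SE, n = 2 clones; limma adjusted p = 0.00802), which is 1.42-fold lower and below the 2-fold limit. All 4 arrays lay below 0. Its size depended on the processing. Its Cy5 signals were 4.79 to 38.3, its Cy3 signals 914 and 790 in Ctrl against 155 and 243 in the clones, and the Cy3 value was -1.55 ± 0.16 (SE; limma adjusted p = 1.82e-05), or 2.93-fold lower. The log ratios of the scanner software gave -1.92, and both of these would be called lower.

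ERBB3, the kinase-poor partner, showed no call. Its bright probe A_23_P349416 read 0.02, -0.11, -0.01 and -0.54, a mean of -0.16 with a 95% interval of -0.41 to 0.09 and a limma adjusted p of 0.309. The Cy3 value was 0.18 (limma adjusted p = 0.423), on the other side of 0. The other ERBB3 probes were too dim to test on both dyes, with 1 and 2 of the 4 Ctrl signals well above background.

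ERBB4, the neuregulin receptor with an active kinase, was the member called higher. Its probe A_32_P183765 (hg19 chr2:212240515-212240574, minus strand) read 0.70, 1.60, 1.03 and 2.28, a mean of 1.40 ± 0.14 (SE, n = 2 clones; limma adjusted p = 4.67e-04). Every array lay above 0, but the arrays with the clone in Cy3 gave the larger values, and with the clone in Cy5 alone the mean was 0.86 and below 2-fold. In Cy3 Ctrl gave 621 and 919, sh-S1 gave 2481 and sh-S2 gave 6396, for a Cy3 value of 2.63 ± 0.20 (SE), or 6.20-fold higher. The second ERBB4 probe, A_23_P423853, was dim and read 0.09, -0.07, 0.09 and 0.52. Its Cy3 signals of 141 and 160 in Ctrl and 203 and 322 in the clones gave a Cy3 value of 0.91 (limma adjusted p = 9.69e-04), below 2-fold.

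Among the ligands, NRG1 changed most. NRG1 makes many neuregulin forms from different promoters and splice sites, and the array has 4 probes designed on different NRG1 transcripts. Each probe is named by the form it was designed on. Which other NRG1 forms it can bind was not examined here. The probe of the ndf43 form, A_23_P360777, read -1.53, -3.57, -1.80 and -3.70, a mean of -2.65 ± 0.10 (SE, n = 2 clones; limma adjusted p = 9.31e-06). Its Cy3 signals were 5429 and 4724 in Ctrl and 136 and 133 in the clones, and its Cy3 value of -4.47 was 22.2-fold lower, the lowest of the 21 probes. In Cy5 it was not well above background in either clone, and the arrays with the clone in Cy5 read the smaller differences.

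2 further NRG1 probes moved the same way. The GGF2 probe, A_23_P136493, read -1.02, -2.17, -1.52 and -2.91 (mean -1.90 ± 0.15 SE, limma adjusted p = 1.95e-04), with Cy3 signals of 3666 and 3670 in Ctrl against 380 and 363. The HRG-gamma probe, A_23_P315815, read -1.27, -1.35, -1.59 and -1.25 (mean -1.36 ± 0.10 SE, limma adjusted p = 1.11e-04), with 4337 and 4406 against 613 and 938. The probe of the SMDF form, a sensory and motor neuron form, was dim and read -0.09, -0.07, -0.13 and 0.12. Its Cy3 signals, not scaled between arrays, were 233 and 238 in Ctrl and 221 and 206 in the clones. After normalization between arrays its Cy3 value was 0.22 (limma adjusted p = 0.332).

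The 5 ligands that bind EGFR gave smaller log2 ratios than NRG1. AREG read -0.21, -0.45, -0.05 and -0.76 (mean -0.37 ± 0.09 SE, limma adjusted p = 0.0251) and did not reach 2-fold. In Cy3 it gave 433 and 405 in Ctrl and 161 and 200 in the clones, for a Cy3 value of -0.70, and the log ratios of the scanner software gave -1.38, which would be called lower. Both clones lay below both Ctrl signals.

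HBEGF, which is also the diphtheria toxin receptor, had 2 probes. A_24_P140608 read -0.20, -0.34, -0.12 and -0.46 (mean -0.28, limma adjusted p = 0.0622). A_23_P213944, in the coding sequence, read -0.22, -0.37, -0.39 and -0.74 (mean -0.43 ± 0.11 SE, limma adjusted p = 0.0226). It passed the signal filter only through Ctrl, where it was higher, which favours ratios below 0. All 8 of these ratios lay below 0 and neither probe reached 2-fold, and their Cy3 values were -0.84 and -0.97. The log ratios of the scanner software gave -0.81 and -1.01, of which the second would be called lower. The coding probe (hg19 chr5:139715508-139715567, minus strand) is shown because both HBEGF probes lay below 0 on all 4 SKOV3 arrays and above 0 on both A2780s arrays.
HBEGF A_23_P213944: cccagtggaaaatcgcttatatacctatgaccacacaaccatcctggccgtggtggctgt

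TGFA, EREG and BTC were tested only in Cy3. TGFA gave 242 and 221 in Ctrl and 30.9 and 48.8 in the clones, where it was not well above background on any of the 4 arrays. Its Cy3 value of -1.41 (limma adjusted p = 2.88e-05) thus used clone signals that were not well above background. As a bound, which was not tested, its level in Cy3 was at least 2.44-fold lower than in Ctrl. The bound was set by the lowest signal well above background or the probe's own. The same bound over both dyes was 1.08-fold, and TGFA was well above background in Ctrl in Cy3 but not in Cy5.

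EREG, a ligand of EGFR and ERBB4, was read by 2 probes. The 3′ probe A_23_P41344 gave 281 and 264 in Ctrl and 56.6 and 100.3 in the clones (Cy3 value -1.06 ± 0.16 SE, limma adjusted p = 3.70e-04) and was well above background in 1 of the 2 clones, while A_24_P217520 gave 212 and 402 against 103 and 146 (Cy3 value -0.68, below 2-fold). In the second probe the 2 Ctrl signals differed from one another by 0.70 on the log2 scale, about as much as the Cy3 value itself. BTC gave 154 and 174 in Ctrl against 71.3 and 79.1 in the clones with its first probe, a Cy3 value of -0.50 (limma adjusted p = 0.0225) that was below 2-fold. Its second probe was not well above background in either clone.

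In A2780s the comparison asked which genes differed in a clone with added Hic-5. 10 of the 21 probes were bright enough to enter, and 1 of them, HBEGF A_24_P140608, was past the rule of a mean of at least 1.5-fold with both arrays in the same direction. With 1 clone there was no test. Over 30530 probes, 3.26% were past the rule upwards and 1.32% downwards. The median of the 10 probes was -0.02 against -0.01 over all probes. BTC A_23_P135722 and HBEGF A_23_P213944 entered only through the clone, which favours ratios above 0. AREG and ERBB2 A_24_P284420 entered only through Ctrl, which favours ratios below 0.

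HBEGF A_24_P140608 read 0.87 with the clone in Cy5 and 0.67 in Cy3, a mean of 0.77 or 1.71-fold higher. Its background-subtracted signals, not scaled between dyes, were 537 in the clone and 162 in Ctrl on the first array, and 407 and 291 on the second. The coding HBEGF probe read 0.41 and 0.35, on the same side but below 1.5-fold, and it entered only through the clone, where it was higher. Both probes were above Ctrl on both arrays, and with normexp fitted on all spots the first gave 0.55, below the rule.

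The other members stayed inside the rule in A2780s. ERBB2 A_23_P89249 read -0.82 and -0.16, a mean of -0.49, so the 2 dye orientations of the same RNAs differed by more than the mean. BTC A_23_P135722 read 0.59 and 0.09, EGFR -0.23 and 0.20, ERBB3 -0.09 and 0.20, and AREG -0.18 and 0.08. The ERBB4 probes read -0.50 and 0.14, and -0.22 and -0.35. The NRG1 probe of the HRG-gamma form had a spot left out on 1 array and read -0.30 on the other, and the other 3 NRG1 probes were not bright enough.

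Levels were set across the 5 RNAs as normalised log2 signals of each probe. For ERBB2 A_23_P89249 the order was SKOV3 Ctrl (13.23, range 13.04 to 13.39), sh-S1 (11.15, 10.95 to 11.35), sh-S2 (10.74, 10.45 to 11.03), A2780s Ctrl (10.45, 10.18 to 10.73) and pCMV-Hic-5 (9.96, 9.91 to 10.01). SKOV3 Ctrl stood clear of all others, the ranges of sh-S1 and sh-S2 overlapped, and those of sh-S2 and A2780s Ctrl did too. The lines were on different slides, and without normalization between arrays SKOV3 Ctrl minus A2780s Ctrl was -0.05 instead of 2.77. By these levels, which average both dyes, the order of the 2 lines for ERBB2 thus rested on that step. In Cy3 alone, not scaled between arrays, Ctrl gave 23390 and 21120 in SKOV3 and 4823 in A2780s. The median Cy3 signals of these arrays were 505, 531 and 325. SKOV3 Ctrl was therefore the higher in Cy3 without that step.

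ERBB4 and NRG1 were ordered in opposite ways between the lines. ERBB4 A_32_P183765 was highest in A2780s Ctrl (11.02, 10.85 to 11.19) and pCMV-Hic-5 (10.84, 10.69 to 10.99), then sh-S2 (10.53, 9.70 to 11.37), sh-S1 (9.65, 8.86 to 10.43) and SKOV3 Ctrl (8.69, 8.16 to 9.08). The first 3 overlapped, and sh-S1 overlapped both sh-S2 and SKOV3 Ctrl. The NRG1 ndf43 probe was highest in SKOV3 Ctrl (10.61, 10.15 to 11.01), with sh-S1 at 8.11, sh-S2 at 7.80, pCMV-Hic-5 at 7.05 and A2780s Ctrl at 6.98, and the last 4 overlapped. SKOV3 Ctrl minus A2780s Ctrl was -2.33 for this ERBB4 probe and 3.62 for this NRG1 probe, and -4.96 and 2.51 without normalization between arrays, so both kept their direction.

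EGFR, AREG, HBEGF and ERBB3 gave smaller differences between the lines. EGFR stood at 8.18 in SKOV3 Ctrl (7.56 to 8.69), 7.68 in sh-S1, 7.66 in sh-S2, 7.25 in A2780s Ctrl (7.05 to 7.46) and 7.24 in pCMV-Hic-5, and the ranges of the clones overlapped that of SKOV3 Ctrl. HBEGF A_24_P140608 stood at 8.34 in SKOV3 Ctrl, 8.17 in pCMV-Hic-5, 8.11 in sh-S2, 8.02 in sh-S1 and 7.40 in A2780s Ctrl. SKOV3 Ctrl minus A2780s Ctrl fell from 0.92 to 0.06 for EGFR without normalization between arrays. For this HBEGF probe it changed from 0.94 to -0.26 and for ERBB3 A_23_P349416 from 0.83 to -0.38. By these levels the direction for these 2 probes rested on that step. In Cy3 alone, not scaled between arrays, this HBEGF probe gave 825.1 and 814.5 in SKOV3 Ctrl and 162.3 in A2780s Ctrl. ERBB3 gave 679.1 and 680.5 against 281.8. Both were thus higher in SKOV3 Ctrl in Cy3, by more than the array medians differed. The coding HBEGF probe kept its direction, at 1.15 and 0.47, and so did AREG, at 0.77 and 0.14.

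The genes next to ERBB2 on chromosome 17 were read because they share its amplified segment in many tumours. Of 15 neighbours, 13 were tested in SKOV3. By limma 2 were called lower (PGAP3, a remodelling enzyme of GPI anchors, and MIEN1) and 0 higher (also 0 at an unadjusted p of 0.05 or less). Over all probes tested 4.16% were called lower and 2.97% higher. Of the 13 neighbours 7 passed the adjusted p alone, where 31.7% of all probes tested did. The median of the neighbours was -0.47 against 0.00 over all probes. With the ratios of the scanner software 6 neighbours were called lower and 0 higher, where 2355 and 1964 of all probes were. PGAP3, whose probe is 57.3 kb before that of ERBB2, read -1.09, -1.31, -1.39 and -1.48 (mean -1.32, limma adjusted p = 1.81e-04). MIEN1, whose probe is 0.639 kb after it, read -1.26, -0.78, -1.29 and -1.06 (mean -1.10, limma adjusted p = 3.15e-04).

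Other neighbours held smaller or no differences. STARD3 had a mean of -0.74, TCAP of -0.69, PPP1R1B of -0.47, ORMDL3 of -0.505 and PSMD3 of -0.98. All had an adjusted p below the limit and lay below 2-fold. GRB7, an adaptor that binds ERBB2 and whose probe lies 17.6 kb after that of ERBB2, read 0.08, -0.17, 0.16 and -0.14, a mean of -0.02 (limma adjusted p = 0.917). GRB7 thus lay on both sides of 0 between MIEN1, which was lower, and IKZF3 at 0.14. In Cy3 alone 3 neighbours were called lower, STARD3 (-1.30), TCAP (-1.57) and PGAP3 (-1.76), of 14 tested, where 5.85% of all probes were. MIEN1 at -0.89 was below 2-fold there, and GRB7 was at -0.09. In A2780s none of 14 neighbours was past the rule, where 3.26% of all probes were upwards and 1.32% downwards.

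**Figure D3:**
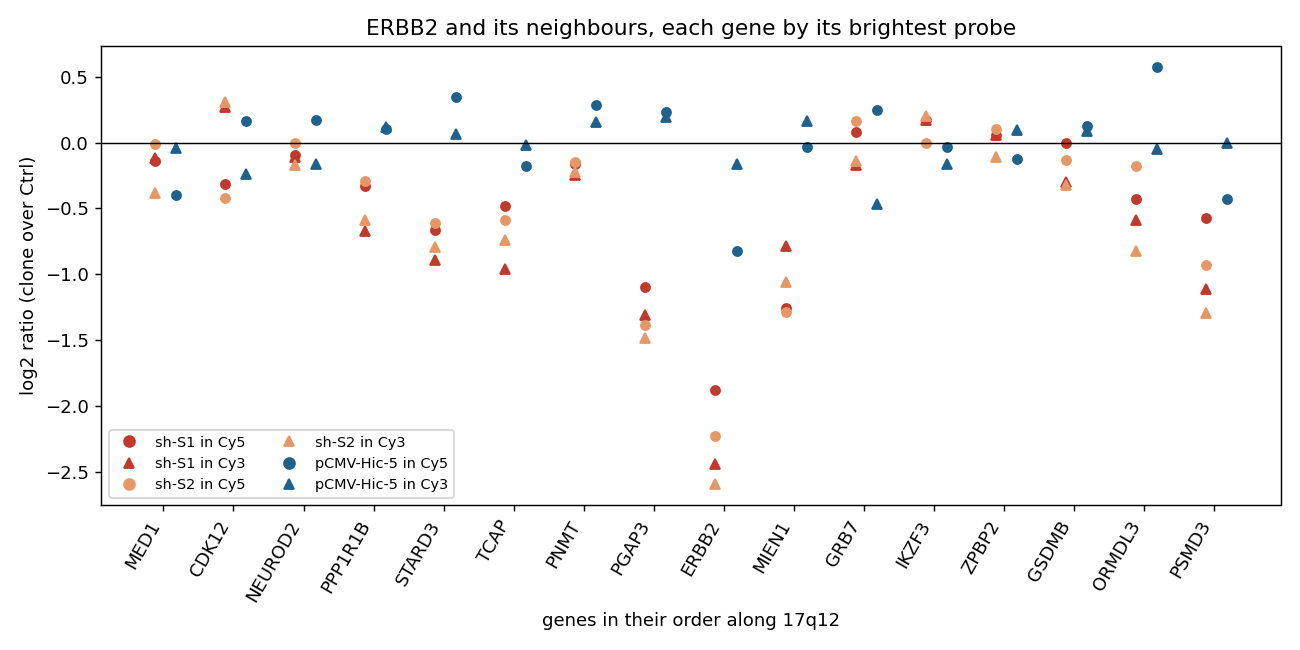
Log2 ratio of clone over Ctrl (vertical axis) of ERBB2 and 15 neighbours, each by its brightest probe, in their order along the chromosome (horizontal axis, not to scale). Points are single arrays, red and orange for SKOV3 and blue for A2780s. In SKOV3 the ratios of STARD3, TCAP, PGAP3, ERBB2 and MIEN1 lie below 0 on all 4 arrays. So do those of MED1, NEUROD2, PPP1R1B, PNMT, GSDMB, ORMDL3 and PSMD3, while those of GRB7 lie on both sides of 0.

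Other genes of the pathway were counted by their brightest probe. Over all probes tested in SKOV3, 2.97% were called higher and 4.16% lower. In Cy3 alone 5.44% were called higher and 5.85% lower, and the ratios of the scanner software gave 1964 probes higher and 2355 lower. The share of all probes at an unadjusted p of 0.05 or less was not counted here. It is no lower than the 31.7% that passed the adjusted p. Counts at the unadjusted p are therefore not read as traits of a list. The other ligands EGF, EPGN, NRG2, NRG3 and NRG4 had no call by limma in SKOV3 (0 of 4 tested, also 0 at an unadjusted p of 0.05 or less, median 0.06). Neither had the 6 genes of ligand shedding, which include the proteases ADAM10 and ADAM17 (median -0.20), of which 1 was higher and 3 were lower at an unadjusted p of 0.05 or less. 2 of these 6, ADAM12 (-0.65) and RHBDF2 (-0.34), passed the adjusted p but not the fold. In Cy3 alone ADAM12 was called lower at -1.41.

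Among the 20 tested adaptors and transducers reported here 1 was called higher and 0 lower by limma, where 3 were higher and 6 lower at an unadjusted p of 0.05 or less, with a median of -0.15. SHC1, the adaptor that couples ErbB receptors to GRB2, read 1.31, 2.04, 1.00 and 1.83 (mean 1.55, limma adjusted p = 1.04e-04). In Cy3 alone SHC1 was called higher at 1.99 and PIK3CB, a catalytic subunit of PI3K, was called lower at -1.17.

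Of 17 tested genes that restrain receptor signalling, here called brakes, 4 were called higher and 1 lower in SKOV3. Over all probes tested 2.97% and 4.16% were. DUSP6, a phosphatase of ERK, read 3.86, 3.32, 3.33 and 3.47 (mean 3.49, limma adjusted p = 3.83e-06), and the Sprouty gene SPRY2 read 2.90, 3.43, 3.19 and 3.59 (mean 3.28, limma adjusted p = 5.36e-06). SPRY1 had a mean of 2.14 and SPRY4 of 1.16, and all 4 genes were higher on all 4 arrays. ERRFI1, an inhibitor that binds EGFR and ERBB2 directly, read -1.26, -1.01, -1.66 and -1.86 (mean -1.44, limma adjusted p = 6.74e-04). The median of the list was -0.10. The number called lower depended on the processing. With the ratios of the scanner software 4 brakes were called higher and 6 lower, where 1964 and 2355 of all probes were. In Cy3 alone 5 were called higher and 4 lower, where 5.44% and 5.85% of all probes were. Those lower in Cy3 alone were ERRFI1 (-1.71), LRIG3 (-1.22), LRIG1 (-1.14) and DUSP4 (-1.06).

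Of the 14 genes listed as dependent on ERK, 2 were called lower and 0 higher by limma, where 5 were higher and 7 lower at an unadjusted p of 0.05 or less. IER3 read -2.55, -4.26, -2.96 and -4.26 (mean -3.51, limma adjusted p = 3.83e-06), and PHLDA1 had a mean of -2.88. On the higher side ETV5 (0.87), MYC (0.87) and ETV4 (0.44) passed the adjusted p but not the fold. IER2 (-0.74), EPHA2 (-0.64), FOSL1 (-0.57), EPHA4 (-0.45) and CCND1 (-0.34) did so on the lower side. MYC read 0.08, 1.61, 0.02 and 1.76 and IER2 -0.56, -1.32, 0.04 and -1.12, so both means rested mainly on the arrays with the clone in Cy3. In Cy3 alone ETV5 (2.05) and ETV4 (1.05) were called higher and PHLDA1 (-3.81), IER3 (-3.39) and FOSL1 (-1.40) lower. Over all probes 5.44% and 5.85% were. The ratios of the scanner software gave 2 higher and 4 lower, where 1964 and 2355 of all probes were. EGR1 and FOS, at 0.29 and 0.33, did not pass.

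In A2780s 3 of 17 brakes were past the rule upwards and none downwards, with a median of 0.31. Over all probes entered, 3.26% were past it upwards and 1.32% downwards. RNF41, a ligase that degrades ERBB3, read 1.15 and 1.12, ERRFI1 0.45 and 0.83, and SPRY2 0.69 and 0.56. Of 14 ERK-dependent genes, ETV5 (1.01 and 0.75), FOS (0.76 and 0.53) and FOSL1 (0.58 and 0.67) were past it upwards, and EGR1 (-1.35 and -0.94) and PHLDA1 (-1.21 and -0.73) downwards. PIK3CA, another catalytic subunit of PI3K, at -0.82 and -0.50, was the 1 of the 21 adaptors and transducers reported here that was past the rule, and no shedding or other ligand gene was.

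**Figure D4:**
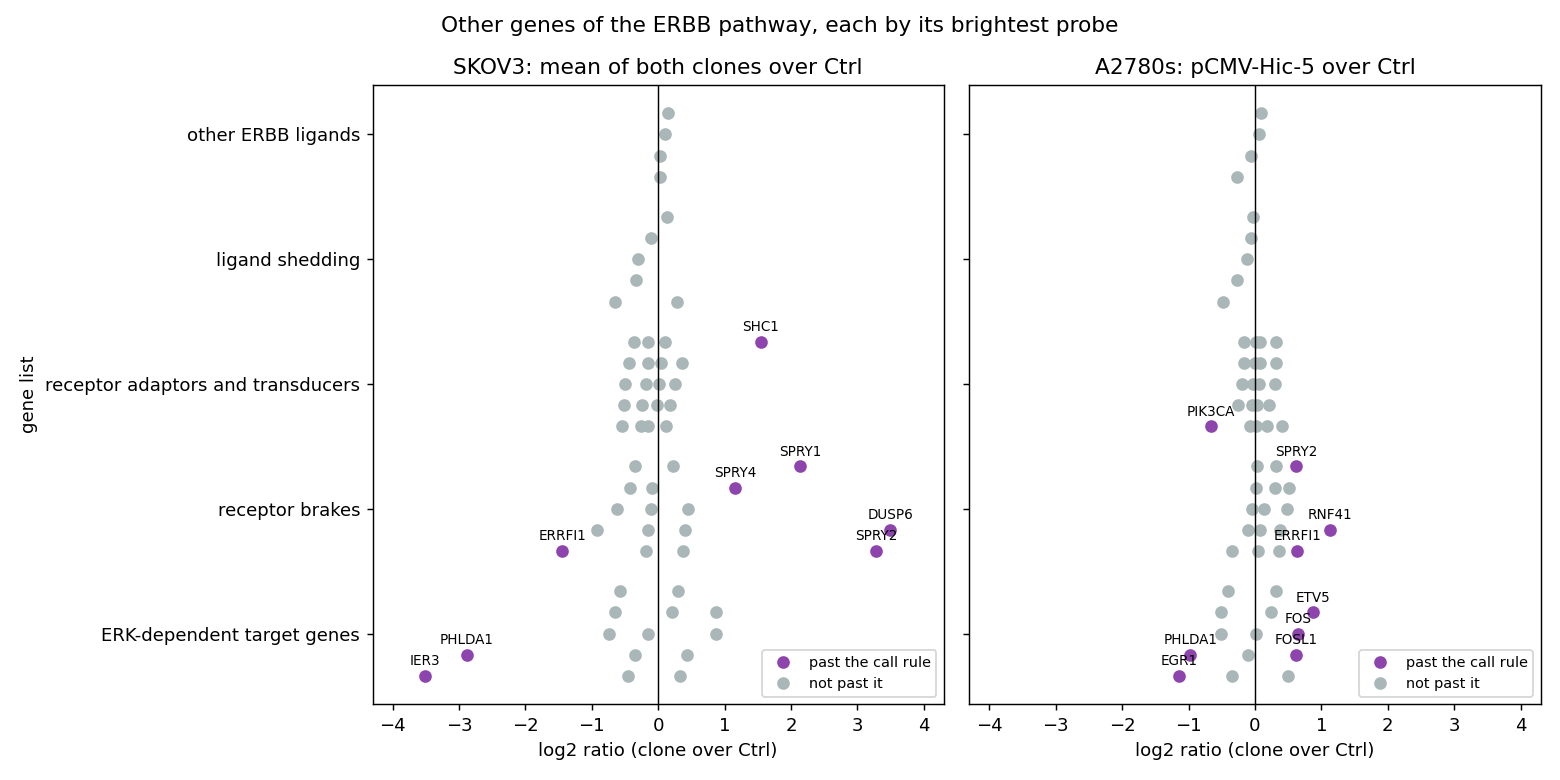
Log2 ratio of clone over Ctrl (horizontal axes) of other ERBB pathway genes in 5 lists (vertical axis), as the mean of both SKOV3 clones (left) and of both A2780s arrays (right). Each point is a gene by its brightest probe, purple and named where it was past the call rule of that line, and points are spread vertically for legibility. DUSP6, SPRY2, SPRY1 and SPRY4 lie to the right of 1 in SKOV3, and IER3 and PHLDA1 lie to the left of -2.

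The genes whose 6 ratios lay closest to those of ERBB2 A_23_P89249, among 22455 probes of other genes tested in both lines, were CARD10 (root mean square difference 0.22 in log2 over the 6 arrays), INHBA (0.24) and TSPAN5 (0.29). For HBEGF A_24_P140608, FLJ37453 (0.10) and SYCE2 (0.11) were among the closest.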

How the data were processed

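Background-subtracted and dye-normalised values had been made by the authors' scanner software, Agilent Feature Extraction (version 8.5.1.1 per the labels, 10.7.3.1 per the file headers). The deposited scanner tables hold intensities per spot and a log10 ratio of Cy5 over Cy3, on a linear and a log10 scale, and the deposited series table holds the same log10 ratios (within 1%, column medians 0 to 0.00139). Each array had 45015 spots, 1639 of them controls.

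Here, mean intensities were corrected with normexp on the local background (offset 50), spots with a background over 1000 or an outlier mark were left out, arrays were normalised by loess, and spots of a probe were averaged (limma 3.58.1, R 4.3.3). Ratios were turned to clone over Ctrl by the channel labels. Both dye orientations of a clone were averaged and counted as 1 replicate, and the 2 SKOV3 clones were tested against 0 with limma and Benjamini-Hochberg adjustment over all probes. A disagreement between the dye orientations therefore does not enter the SE or the p-value. In the fit with a clone block, the consensus correlation of the arrays of a clone was -0.58. The 2 clones share 1 Ctrl RNA, so p-values leave out the spread of Ctrl, and nothing says that they measure more than these 2 clones. Probes entered where Ctrl was well above background on all arrays of a line or a clone on both of its arrays (for a probe printed several times, on most of its spots). Levels were normalised between arrays by Aquantile. A gene counted by its brightest probe, and all member probes are named; pathway genes are named where called.

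The ERBB genes and the lists were chosen with earlier results of these data known, and some genes of the lists and comparisons are not reported here. Alternatives were the scanner software's ratios, other background and centring settings, no filter, each dye orientation alone, each clone left out and a clone block on 4 arrays. The number of arrays limits the precision. Each line lay on 1 slide, so slide and line cannot be told apart and no slide block could be fitted. 19 of 21 member probes matched a RefSeq gene by accession, all with the same symbol. Probe sequences and hg19 positions are those of the deposited tables.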

Additional observations from a re-analysis of the deposited data

Results flagged for a closer look

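In the Ctrl RNA of SKOV3 the level of the coding ERBB2 probe A_24_P284420 was 7.54, 7.58 and 7.57 on 3 arrays and 7.16 on the array with sh-S2 in Cy3, a gap of 0.903 of the whole range over 4 arrays. Chance marks about 1 in 20 such groups, and the 4 levels of 21 probes and the 4 ratios of 10 probes were examined in this way.

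HBEGF lay below 0 on all 4 SKOV3 arrays and above 0 on both A2780s arrays with both probes. In each line A_23_P213944 passed the signal filter only through the RNA in which it was higher, Ctrl in SKOV3 and pCMV-Hic-5 in A2780s. Its directions are therefore not separate support for those of A_24_P140608. The means of the lines, A2780s minus SKOV3, differed by 1.05 for A_24_P140608 and by 0.81 for A_23_P213944. The difference between the lines was not tested, since A2780s had 1 clone, and the 2 contrasts are not the same, a labelled loss of Hic-5 in one line and a gain in the other.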

How the results depend on the processing

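Of the ERBB probes called in SKOV3 (4 lower, 1 higher), leaving out either clone, which leaves a fold rule with no test, kept the counts at 4 lower and 1 higher. With the ratios of the scanner software and with Cy3 alone, which was added after the data were seen, 7 were called lower (with EGFR, AREG and 1 HBEGF probe added by the first and EGFR, TGFA and 1 EREG probe by the second), and with the clone in Cy5 alone 0 were called higher, since ERBB4 gave 0.86. ERBB3, never called, turned to 0.004 with the clone in Cy5 alone and to 0.177 in Cy3 alone. In A2780s the 1 probe past the rule upwards became 3 with the ratios of the scanner software, 0 with normexp on all spots and 2 with the clone in Cy5 alone, where 1 was past it downwards. By the mean over the probes of a gene HBEGF was not past it (0 genes higher). Over all probes, SKOV3 calls went from 1037 lower and 742 higher to 2355 and 1964 with the ratios of the scanner software and to 2214 and 2057 in Cy3 alone, to 1579 lower with median centring, and to 1216 higher with the clone in Cy3 alone. In A2780s, 994 higher and 403 lower became 1797 and 1519 with the clone in Cy5 alone and 495 and 123 with 1.5-fold on each array, while 700 were lower with the ratios of the scanner software and 214 with the clone in Cy3 alone. The cause of these changes was not tested. Each clone and its Ctrl lay on the same arrays, so every ratio was already paired within an array and no further pairing was fitted. The 2 lines, which share only replicate number 1, were not tested against each other. The slide could not be fitted as a block because each slide held 1 line. The dim Cy5 signals of the SKOV3 arrays limit the members that could be tested on both dyes to 10 of 21 probes.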
